A study of Mus musculus with 12 samples.

Results

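Integrins are the receptors with which cells hold on to the matrix around them, and laminins are the main adhesive proteins of the sheet of matrix, the basement membrane, on which kidney tubules stand. This account follows their subunit genes in mouse kidney tumors that lack the Hippo pathway kinases Lats1 and Lats2, and in sorted proximal tubule cells. The genes were taken by name from a table of 24432 genes: every symbol beginning with Itga or Itgb, and Lama, Lamb and Lamc followed by a chain number, without pseudogenes. The rule found 42 genes. Of these, 38 encode subunits, with 18 integrin α chains, 9 integrin β chains and 11 laminin chains (5 α, 3 β and 3 γ). The other 4 (Itgb1bp1, Itgb1bp2, Itgb3bp and Itgbl1) are matched by their names but encode no integrin chain, and they are given apart at the end. All 42 were found by name and none by its measured values.

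Bulk RNA was sequenced from 12 libraries in 4 groups of 3. Allograft tumors grew for 6 weeks from Lats1-/-;Lats2-/- cells of a mixed strain, put beneath the kidney capsule of NOD/scid mice aged 6 to 8 weeks, a host strain that lacks T and B cells. Lung metastases and primary kidney tumors came from mice of a mixed strain with the genotype Slc34a1CreERT2;Lats1/2flox/flox, given 3 injections of tamoxifen at 1 month of age and dissected 4 months later. In these mice Cre is made in cells that express Slc34a1, a phosphate transporter of the proximal tubule. Proximal tubule cells were sorted from kidneys of adult mice of a mixed strain with the genotype Slc34a1CreERT2;Lats1c/c;Lats2c/+;RosaTomato. These control cells therefore also carry Cre and conditional Lats alleles, and the sources used here do not give whether these alleles were recombined, while the header of the deposited table calls these columns wild type. The tumors were dissected whole, while the proximal tubule cells were sorted, so the groups also differ in which cells could enter the library. Whether the allografted cells were 1 clone, and whether the 3 samples of a group came from separate animals, is likewise not stated. The p-values therefore describe the variation among these libraries alone, and that may be technical.

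An integrin is a pair of 1 α and 1 β chain, and the pair decides what it binds. Chains α3, α6 and α7 bind laminins, α1, α2, α10 and α11 bind collagens, and αv, α5, α8 and αIIb bind proteins with an RGD motif such as fibronectin and vitronectin. Most of these α chains pair with β1, while αv also pairs with β3, β5, β6 and β8. The αv pairs with β6 and β8 are known for releasing TGF-β from its latent form. A further set of chains, led by β2, is found on leukocytes. A laminin is a trimer of 1 α, 1 β and 1 γ chain. In kidney, laminins with α1 and α5 lie in tubular basement membranes and those with α5, β2 and γ1 in the glomerulus, while laminins with α3 anchor epithelia such as skin.

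Levels are the authors' FPKM values, that is, fragment counts divided by transcript length and library total, so that levels of different genes can be compared within a library. Estimated depths were 11400000 to 18500000 fragments in the 9 tumor libraries and 4840000 to 6230000 in the proximal tubule libraries. By that estimate, 1 fragment on a 5 kb transcript equals 0.0108 to 0.0176 FPKM in tumors and 0.0321 to 0.0414 FPKM in proximal tubule libraries. Correlations between libraries of a group ran from 0.919 to 0.949 in allografts, 0.953 to 0.963 in metastases, 0.797 to 0.928 in primary tumors and 0.961 to 0.969 in proximal tubule cells. Lats1 stood at 5.603, 7.82 and 7.29 FPKM in the allografts, 9.54, 10.4 and 10.7 in the metastases, 12.3, 13.0 and 14.7 in the primary tumors and 11.9, 12.7 and 12.8 in proximal tubule cells. For Lats2 the values were 12.2, 16.6 and 17.1 FPKM in allografts, 22.5, 19.9 and 22.4 in metastases, 19.5, 13.0 and 21.4 in primary tumors and 10.5, 10.7 and 10.96 in proximal tubule cells. The exons that the alleles lose are not stated, and a value over the whole gene in tissue with host cells checks neither label. Slc34a1 was at 1.37, 0.970 and 0.120 FPKM in the allografts, 0.0169, 0.0609 and 0.0951 in the metastases, 6.17, 833 and 166 in primary tumors 1 to 3 and 866, 893 and 1039.8 in the sorted cells, which puts primary tumors 2 and 3 far above primary tumor 1. Markers of lung epithelium summed to 11890.3 to 18982 FPKM in the metastases, against 4.01 to 11.4 FPKM in the primary tumors.

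Changes were tested with limma on log2(FPKM + 1) in 1 fit over all 12 libraries, and a gene was called where its p, adjusted by the Benjamini-Hochberg method over 16313 genes, was under 0.05. On this scale the changes of low genes are understated. As deposited, every comparison with proximal tubule cells was shifted upward for all genes: the median log2 change of all genes was 0.66 for allografts, 0.68 for metastases and 0.59 for primary tumors. The share of calls that were higher was 75.6% for allografts, 78.9% for metastases and 90.8% for primary tumors. After median-of-ratios scaling the medians were 0.19, 0.20 and 0.08, and the shares 57.1%, 58.3% and 58.6%. Rescaling to TPM turned the shift downward, with medians of -0.37 for allografts, -0.18 for metastases and -0.29 for primary tumors and 33.6%, 43.7% and 35.9% of calls higher. This rescaling divides by the column sum, which was 1352270 to 2527750 FPKM in tumors and 706093 to 738052 in sorted cells. A single gene, Mir6236, stood at 1082170, 317686 and 726226 FPKM in allografts and 454517, 385365 and 432007 in metastases. It had 491997, 485132 and 481226 FPKM in primary tumors and 37.0, 57.2 and 0 in sorted cells. The part of Mir6236 in the TPM values given here and below was not tested. Changes against proximal tubule cells should be read against these shifts, and the plot of changes draws median-of-ratios values beside those as deposited. Between tumor groups the medians lay within 0.03 of 0 as deposited. After rescaling to TPM they were -0.23 for allografts against metastases and -0.24 for allografts against primary tumors, and the share of calls that were higher moved to 17.5% and 31.9%, beside 44.0% and 49.3% as deposited.

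Of the 42 genes, 40 had at least 1 FPKM in at least 3 of the 12 libraries and were tested. Itga10 and Itgad were not. The filter lets in a gene through the group where it is high, so the counts over the 40 are a description. Against proximal tubule cells 27 of the 40 were called higher and 6 lower in allografts, where 52.2% and 16.9% of all genes were. In metastases 29 were called higher and 3 lower, beside 54.0% and 14.4% of all genes. In primary tumors 29 were called higher and 2 lower, beside 48.2% and 4.90% of all genes. The members' median log2 change was 1.62 in allografts, 1.83 in metastases and 1.48 in primary tumors. With median-of-ratios scaling the counts were 25 higher and 7 lower in allografts (37.4% and 28.1% of all genes), 26 and 6 in metastases (37.4% and 26.8%), and 21 and 4 in primary tumors (25.5% and 18.0%), and the median changes were 1.14, 1.36 and 1.05. The 3 comparisons share their control libraries. Between tumor groups the counts as deposited were 2 higher and 10 lower in allografts against metastases, beside 10.4% and 13.3% of all genes, 9 and 13 in allografts against primary tumors, beside 20.5% and 21.1%, and 9 and 5 in metastases against primary tumors, beside 11.3% and 9.59%. With median-of-ratios scaling these counts were 2 and 10 (9.39% and 13.3% of all genes), 8 and 13 (20.4% and 20.6%), and 9 and 4 (12.1% and 8.88%).

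**Figure D1:**
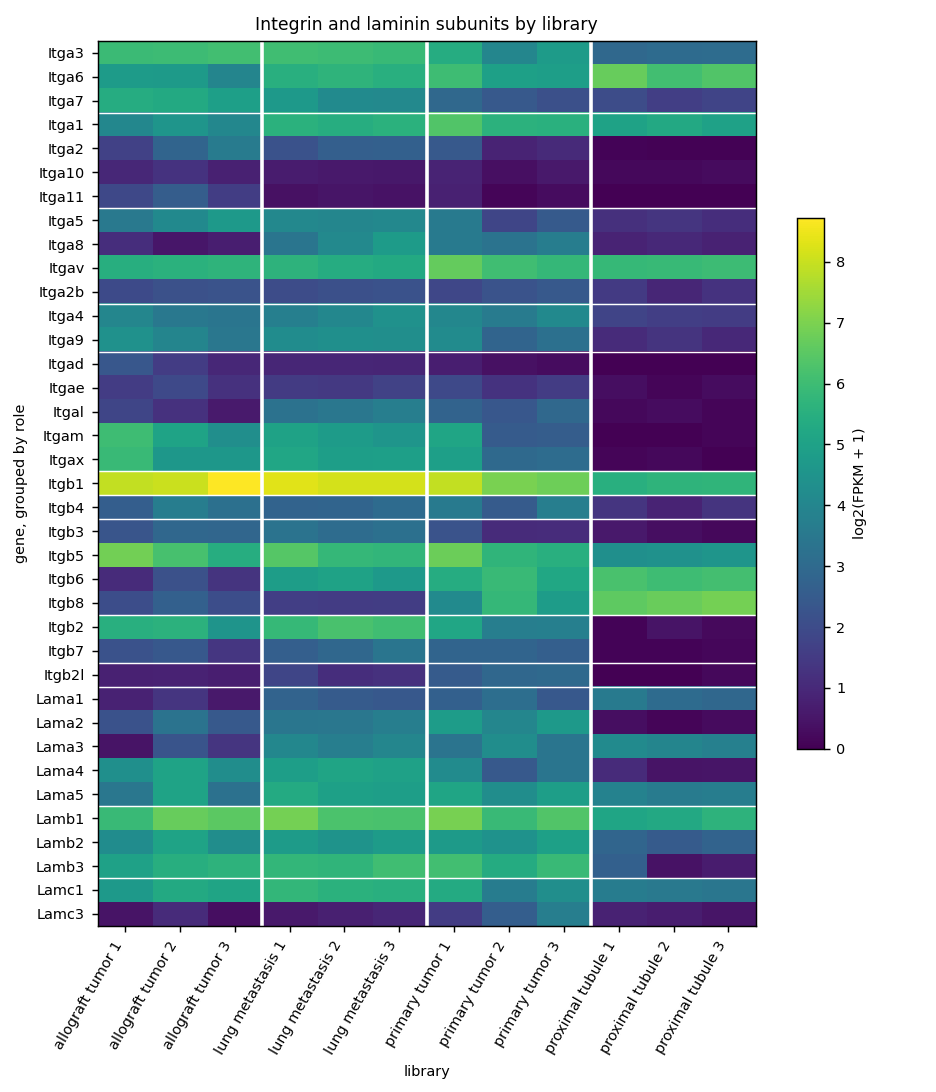
Level of 37 subunit genes (rows, grouped by role) in each of the 12 libraries (columns), as log2(FPKM + 1) on a color scale. Itgb1 is the brightest row in the 9 tumor libraries, Itgb8 and Itgb6 are bright in the proximal tubule libraries, and Itgam, Itgax and Itgb2 are near 0 in those libraries.

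Among the integrin β chains, the leading genes differed between tumors and proximal tubule cells. Sorted cells were led by Itgb8 and Itgb6, the αv partners that release TGF-β, while all tumors were led by Itgb1, the partner of most α chains. Itgb8 had 3.14, 5.40 and 3.22 FPKM in allograft tumors 1 to 3, 2.08, 1.92 and 1.98 in lung metastases 1 to 3, 17.3, 55.2 and 27.5 in primary tumors 1 to 3, and 94.2, 105 and 118 in proximal tubule libraries 1 to 3. No tumor library reached the proximal tubule range, and the metastases were lowest and closest together. Itgb8 fell by 4.46 ± 0.34 (SE) on the log2 scale in allografts against proximal tubule cells (adjusted p = 4.8e-06), by 5.15 ± 0.34 in metastases (adjusted p = 1.68e-06) and by 1.79 ± 0.34 in primary tumors (adjusted p = 0.00166). Median-of-ratios scaling gave -5.07, -5.71 and -2.44. Itgb8 in metastases was also lower than in primary tumors (-3.36 ± 0.34, adjusted p = 9.82e-05) as was Itgb8 in allografts (-2.68 ± 0.34, adjusted p = 0.000359). In bulk samples such as these, fewer cells that make a transcript and less transcript per cell cannot be told apart. The 8 proximal tubule markers summed to 37.5 to 108 FPKM in allografts, 175 to 221 in metastases, 156, 3702 and 968 in primary tumors 1 to 3 and 4842 to 5767 in the sorted cells, and primary tumor 2, which had the highest Itgb8 of all tumors, also had the highest sum of these markers among tumors. In the metastases these sums were nearly all Aqp1 (180, 141 and 153 FPKM) and Lrp2 (39.9, 33.1 and 30.4). Every other marker was at most 0.475 FPKM there. Primary tumor 1 had Aqp1 at 83.2 and Lrp2 at 35.9 FPKM, and the other markers from 0.857 (Slc22a6) to 9.10 FPKM (Hnf4a). The part of remaining tubule cells in the tumors' Itgb8 level was not tested.

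Itgb6 followed another course. It had 1.09, 3.46 and 1.49 FPKM in the allografts, 28.0, 31.6 and 25.2 in the metastases, 41.3, 58.6 and 35.9 in the primary tumors and 73.1, 63.6 and 68.2 in proximal tubule cells. Metastases and primary tumors kept at least 25.2 FPKM, and the allografts were far below every other library. The fall in allografts was 4.60 ± 0.27 on the log2 scale against proximal tubule cells (adjusted p = 1.47e-06), 3.35 ± 0.27 against metastases (adjusted p = 1.98e-05) and 3.99 ± 0.27 against primary tumors (adjusted p = 2.42e-05). In metastases Itgb6 fell by 1.25 ± 0.27 against proximal tubule cells (adjusted p = 0.00204). Scaling by median of ratios gave -5.18 in allografts and -1.85 in metastases. In primary tumors its change of -0.61 ± 0.27 was not called as deposited (adjusted p = 0.0796) and was called lower with median-of-ratios scaling (-1.26, adjusted p = 0.00337). Metastases thus held Itgb6 near 28.2 ± 3.21 FPKM with Itgb8 near 1.99 ± 0.0806 FPKM (SD, n = 3), while the sorted cells held 68.3 ± 4.74 and 106 ± 11.8 FPKM. All 6 lung epithelial markers were called higher in metastases than in primary tumors, where 11.3% of all genes were. The part of lung tissue in the Itgb6 level of the metastases was not tested.

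Itgb1 was the most abundant of the 42 genes in 9 of 9 tumor libraries. It had 241, 258 and 422 FPKM in the allografts, 320.1, 283 and 284 in the metastases, 243, 125 and 111 in the primary tumors and 44.1, 49.7 and 50.7 in proximal tubule cells. Every tumor library lay above every proximal tubule library. Itgb1 rose by 2.60 ± 0.30 in allografts (adjusted p = 3.13e-05), 2.59 ± 0.30 in metastases (adjusted p = 3.8e-05) and 1.62 ± 0.30 in primary tumors (adjusted p = 0.0013). Median-of-ratios scaling gave 1.96, 1.99 and 0.97. The call in primary tumors was lost after rescaling to TPM (0.52, adjusted p = 0.211). Its higher level in metastases than in primary tumors (0.97 ± 0.30, adjusted p = 0.0426) was lost on leaving out any of 9 of the 12 libraries, among them primary tumor 2 (adjusted p = 0.125) and each metastasis. In allografts against primary tumors (0.98 ± 0.30, adjusted p = 0.0232) the call was lost without primary tumor 2, primary tumor 3 or allograft 3 (adjusted p = 0.0689, 0.0878 and 0.0731).

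Loss of Lats kinases is known to free YAP and TAZ, which act on DNA through TEAD factors, often beside AP-1. RefSeq promoter windows on GRCm38.p6, of 250 bases before and 50 after a start site, were available for 27 of the 42 genes (30 windows). They were searched on both strands for the core TEAD motif GGAATG and for the AP-1 motif TGANTCA. The first reads as CATTCC on the other strand and the second is its own reverse complement. A TEAD motif was in 3 of the 30 windows (10%), against 14.7% of all 32851 windows, and an AP-1 motif in 3 (10%), against 7.81%. A match is a description of the letters and not a bound site. The windows with a TEAD motif were those of Itga10, Itgb1 and 1 of the 2 windows of Lamb3, and those with an AP-1 motif were 1 of the 2 windows of Itga3 and those of Itga9 and Itgax. Sequences are shown for Itgb1 and Lamb3, which rose in every kind of tumor, for Itga3, and for Itgb8, which fell in every kind and whose window held neither motif. Windows of other genes that rose in every kind of tumor, among them Itga4, Lama2 and Lamb2, also held neither motif. Matched motifs are in capitals. The Itgb1 window lies at chr8:128685404-128685703 on the plus strand, and its motif begins 7 bases before the start site. The Lamb3 window at chr1:193301993-193302292 on the plus strand has its motif beginning 167 bases before the start site. That motif lies downstream of the start of the other Lamb3 window, where neither motif was found. The Itga3 window at chr11:95069149-95069448 on the minus strand has an AP-1 motif that begins 12 bases after the start site, which lies downstream of the start of the other Itga3 window, where neither motif was found, and the Itgb8 window lies at chr12:119238227-119238526 on the minus strand.
Itgb1: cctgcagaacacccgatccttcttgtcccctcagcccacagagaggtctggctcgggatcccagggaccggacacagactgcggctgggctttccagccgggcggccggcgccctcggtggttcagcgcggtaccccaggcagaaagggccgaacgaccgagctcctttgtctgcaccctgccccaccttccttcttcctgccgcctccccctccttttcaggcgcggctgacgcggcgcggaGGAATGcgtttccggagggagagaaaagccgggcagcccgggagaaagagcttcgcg
Lamb3: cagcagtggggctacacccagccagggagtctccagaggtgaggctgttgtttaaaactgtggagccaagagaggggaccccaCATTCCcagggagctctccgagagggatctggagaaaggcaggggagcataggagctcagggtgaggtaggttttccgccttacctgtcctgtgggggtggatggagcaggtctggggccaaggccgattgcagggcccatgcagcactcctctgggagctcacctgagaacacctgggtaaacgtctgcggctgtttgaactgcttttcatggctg
Itga3: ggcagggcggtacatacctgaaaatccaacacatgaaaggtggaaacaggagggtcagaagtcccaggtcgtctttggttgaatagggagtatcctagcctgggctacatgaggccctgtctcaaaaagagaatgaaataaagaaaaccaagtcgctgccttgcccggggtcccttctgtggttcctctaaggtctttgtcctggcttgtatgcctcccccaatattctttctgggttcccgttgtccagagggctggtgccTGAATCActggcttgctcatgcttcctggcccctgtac
Itgb8: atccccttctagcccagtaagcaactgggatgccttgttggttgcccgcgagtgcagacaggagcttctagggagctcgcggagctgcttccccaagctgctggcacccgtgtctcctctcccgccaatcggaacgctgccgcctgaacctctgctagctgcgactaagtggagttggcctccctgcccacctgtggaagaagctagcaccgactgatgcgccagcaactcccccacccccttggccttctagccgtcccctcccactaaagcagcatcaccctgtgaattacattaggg

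Itgb5, which pairs with αv to bind vitronectin, had 116, 71.0 and 42.7 FPKM in the allografts, 84.7, 55.6 and 52.7 in the metastases, 107, 51.4 and 44.7 in the primary tumors and 19.3, 20.3 and 22.4 in proximal tubule cells. Its rise was 1.73 ± 0.39 in allografts (adjusted p = 0.00242), 1.56 ± 0.39 in metastases (adjusted p = 0.00456) and 1.56 ± 0.39 in primary tumors (adjusted p = 0.00698). With median-of-ratios scaling the changes were 1.10, 0.97 and 0.92. The call in primary tumors was then lost (adjusted p = 0.0773), and rescaling to TPM ended all 3 calls (0.34, 0.53 and 0.48, adjusted p = 0.473, 0.265 and 0.323). Itgb3, the β chain shared by αv and the platelet chain αIIb, was low everywhere, with 3.89, 6.60 and 6.30 FPKM in the allografts, 9.03, 7.58 and 8.25 in the metastases, 3.75, 1.09 and 1.16 in the primary tumors and 0.524, 0.253 and 0.137 in proximal tubule cells. It rose in allografts (2.32 ± 0.31, adjusted p = 7.65e-05), metastases (2.84 ± 0.31, adjusted p = 2.69e-05) and primary tumors (1.10 ± 0.31, adjusted p = 0.0122). Median-of-ratios scaling gave 2.06 in allografts, 2.60 in metastases and 0.88 in primary tumors. The call in primary tumors was lost under TPM and quantile scaling, and the change moved to 0.71 without primary tumor 1. The 3 metastases had the highest Itgb3 of all 12 libraries, and were higher than primary tumors (1.74 ± 0.31, adjusted p = 0.00349), a call lost without primary tumors 2 and 3 (0.97, adjusted p = 0.0924).

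Shares within a library do not depend on how that library was scaled. Of the summed FPKM of the 6 β chains other than the leukocyte ones, Itgb1 made up 65.2 to 87.2% in allografts, 71.2 to 74.9% in metastases, 42.3 to 57.4% in primary tumors and 18.9 to 20.7% in proximal tubule cells. Itgb8 made up 0.666 to 1.52% in allografts, 0.463 to 0.521% in metastases and 4.08 to 18.6% in primary tumors, against 40.5 to 45.2% in proximal tubule cells. Itgb6 made up 0.294 to 0.972% in allografts, 6.22 to 8.18% in metastases and 9.76 to 19.8% in primary tumors, against 26.2 to 31.4% in proximal tubule cells. Among the chains that pair with αv other than β1, Itgb5 led the allografts at 79.5 to 93.4% and the metastases at 57.5 to 68.4%, and held 30.9 to 63.2% in primary tumors and 10.3 to 10.8% in proximal tubule cells. Between each kind of tumor and proximal tubule cells the shares of Itgb1 and Itgb8 did not overlap. The exact two-sided permutation test between 3 and 3 libraries cannot give less than 0.10, which each of these share differences reached, and 168 share comparisons were made in all, 127 of them without overlap. They are not independent, since shares within a class depend on one another and Itgb3, Itgb5, Itgb6 and Itgb8 are in both β classes. No such count was made over other genes, so 127 is a description.

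**Figure D2:**
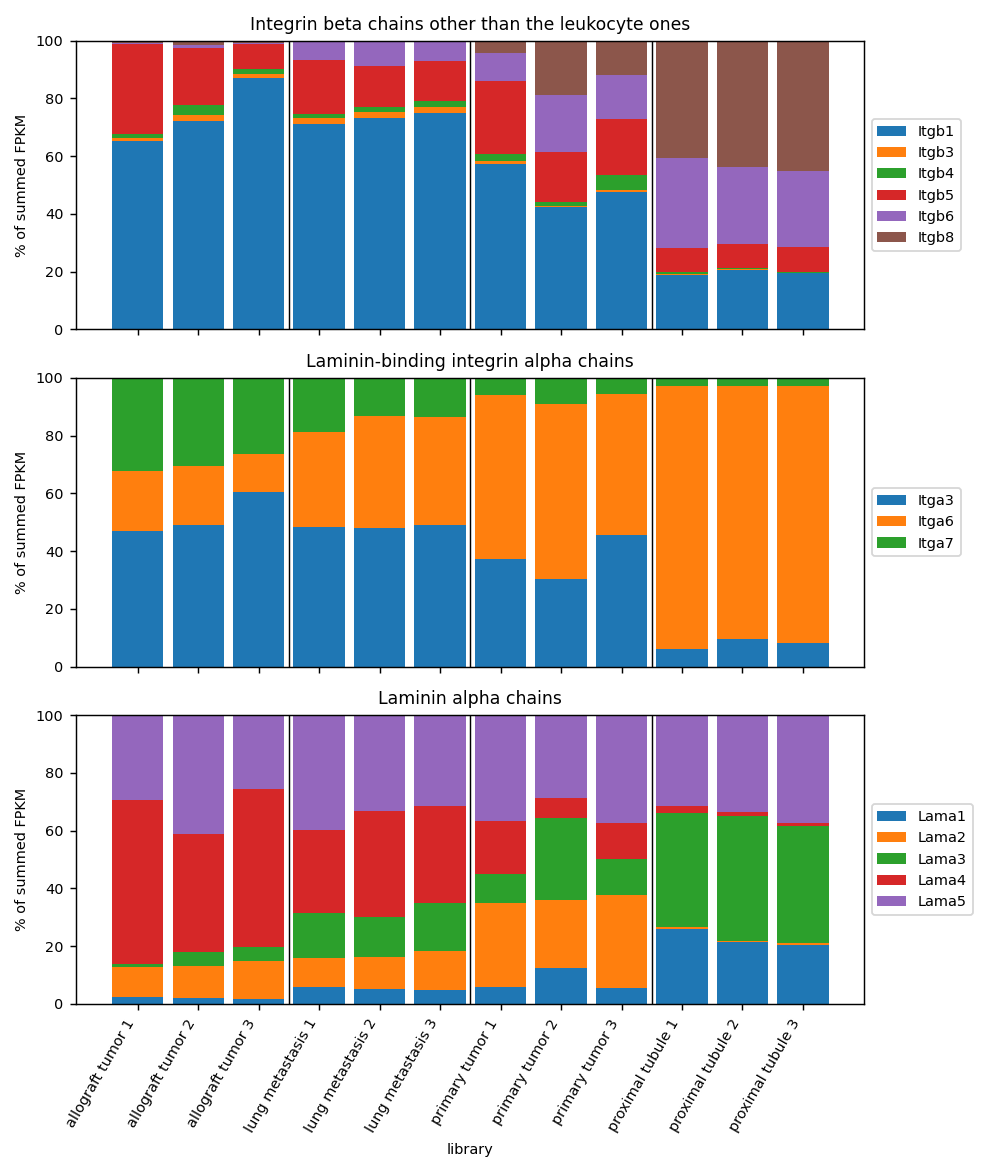
Share of each chain in the summed FPKM of its class (vertical axis, percent) in each of the 12 libraries, for integrin β chains other than the leukocyte ones, laminin-binding integrin α chains and laminin α chains. Itgb8 and Itgb6 fill most of the bar in proximal tubule cells and little of it in allografts. Itga6 has a smaller share in all tumors than in proximal tubule cells. It remains the largest of its class in primary tumors and is below Itga3 in metastases and allografts. Lama4 takes the largest part of the laminin α bar in allografts 1 and 3 and in metastases 2 and 3.

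The partner chain of these β chains is αv. Its gene, Itgav, had 42.9, 46.0 and 50.4 FPKM in the allografts, 48.7, 40.8 and 37.9 in the metastases, 101, 64.6 and 55.4 in the primary tumors and 56.6, 57.8 and 62.6 in proximal tubule cells. Its change against proximal tubule cells was not called in allografts (-0.34 ± 0.21, adjusted p = 0.166), metastases (-0.47 ± 0.21, adjusted p = 0.0651) or primary tumors (0.27 ± 0.21, adjusted p = 0.288) as deposited. Under median-of-ratios scaling Itgav was called lower in allografts (-0.98, adjusted p = 0.00229) and in metastases (-1.07, adjusted p = 0.0014). Primary tumor 1 had the highest Itgav of all libraries, and without it the lower call in allografts than in primary tumors (-0.61 ± 0.21, adjusted p = 0.037) was lost (-0.36, adjusted p = 0.0837), as it was without 7 other libraries. The lower call in metastases than in primary tumors (-0.74 ± 0.21, adjusted p = 0.0316) was lost without metastasis 2, metastasis 3 or proximal tubule library 2 (adjusted p = 0.102, 0.11 and 0.0506).

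Itga5, the fibronectin receptor chain, had 10.5, 16.5 and 25.0 FPKM in the allografts, 15.8, 14.9 and 15.7 in the metastases, 11.02, 2.58 and 4.60 in the primary tumors and 1.33, 1.54 and 1.20 in proximal tubule cells. Every tumor library lay above the proximal tubule range, with primary tumors 2 and 3 closest to it. Itga5 rose by 2.88 ± 0.40 in allografts (adjusted p = 0.000104), 2.81 ± 0.40 in metastases (adjusted p = 0.000145) and 1.40 ± 0.40 in primary tumors (adjusted p = 0.0136). With median-of-ratios scaling the change was 2.43 in allografts and 2.39 in metastases. The call in primary tumors was lost under all 4 other scalings (with median-of-ratios scaling 0.97, adjusted p = 0.0786), and the change moved to 0.93 without primary tumor 1. Itga5 was higher in allografts than in primary tumors (1.48 ± 0.40, adjusted p = 0.0138) and in metastases than in primary tumors (1.40 ± 0.40, adjusted p = 0.0336). Neither call held after rescaling to TPM (adjusted p = 0.0726 and 0.0599) or without primary tumors 2 and 3 together (0.53 and 0.45, adjusted p = 0.351 and 0.705), and the second was also lost on leaving out any of 8 of the 12 libraries (highest adjusted p 0.106, without primary tumor 3). Its ligand gene Fn1 had 333, 385 and 565 FPKM in allografts, 351, 288 and 304 in metastases, 285, 26.5 and 43.9 in primary tumors and 13.2, 9.52 and 8.58 in proximal tubule cells.

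Itga8, whose protein binds nephronectin during kidney development and is found on mesangial and smooth muscle cells, separated the tumors of the Cre mice from the allografts. It had 1.20, 0.435 and 0.655 FPKM in the allografts, 9.44, 16.3 and 26.8 in the metastases, 11.1, 8.94 and 12.1 in the primary tumors and 0.829, 0.990 and 0.771 in proximal tubule cells. Metastases and primary tumors did not overlap allografts or proximal tubule cells. It rose by 3.20 ± 0.31 in metastases (adjusted p = 1.42e-05) and 2.64 ± 0.31 in primary tumors (adjusted p = 0.000104) against proximal tubule cells, and the change in allografts was -0.10 ± 0.31 (adjusted p = 0.789). Median-of-ratios scaling gave -0.41 in allografts, 2.84 in metastases and 2.24 in primary tumors. Allografts were lower than metastases (-3.30 ± 0.31, adjusted p = 5.16e-05) and than primary tumors (-2.74 ± 0.31, adjusted p = 0.000213), under all 4 other scalings and without any single library. The nephronectin gene Npnt had 3.67, 5.497 and 3.16 FPKM in allografts, 116, 69.4 and 78.8 in metastases, 121, 25.7 and 62.2 in primary tumors and 58.6, 37.0 and 28.5 in proximal tubule cells. The 6 smooth muscle markers summed to 291 to 397 FPKM in allografts, 295 to 328 in metastases, 65.5 to 311 in primary tumors and 29.1 to 38.4 in proximal tubule cells. Myh11, smooth muscle myosin and 1 of these markers, had 3.28, 4.97 and 5.00 FPKM in allografts, 4.64, 6.53 and 10.9 in metastases, 8.91, 6.27 and 14.8 in primary tumors and 9.10, 8.37 and 10.2 in proximal tubule cells. The 6 podocyte markers summed to 12.8 to 29.5 FPKM in allografts, 43.4 to 46.5 in metastases, 68.8 to 113 in primary tumors and 14.8 to 22.3 in proximal tubule cells, and the part of either cell type in the Itga8 levels was not tested.

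**Figure D3:**
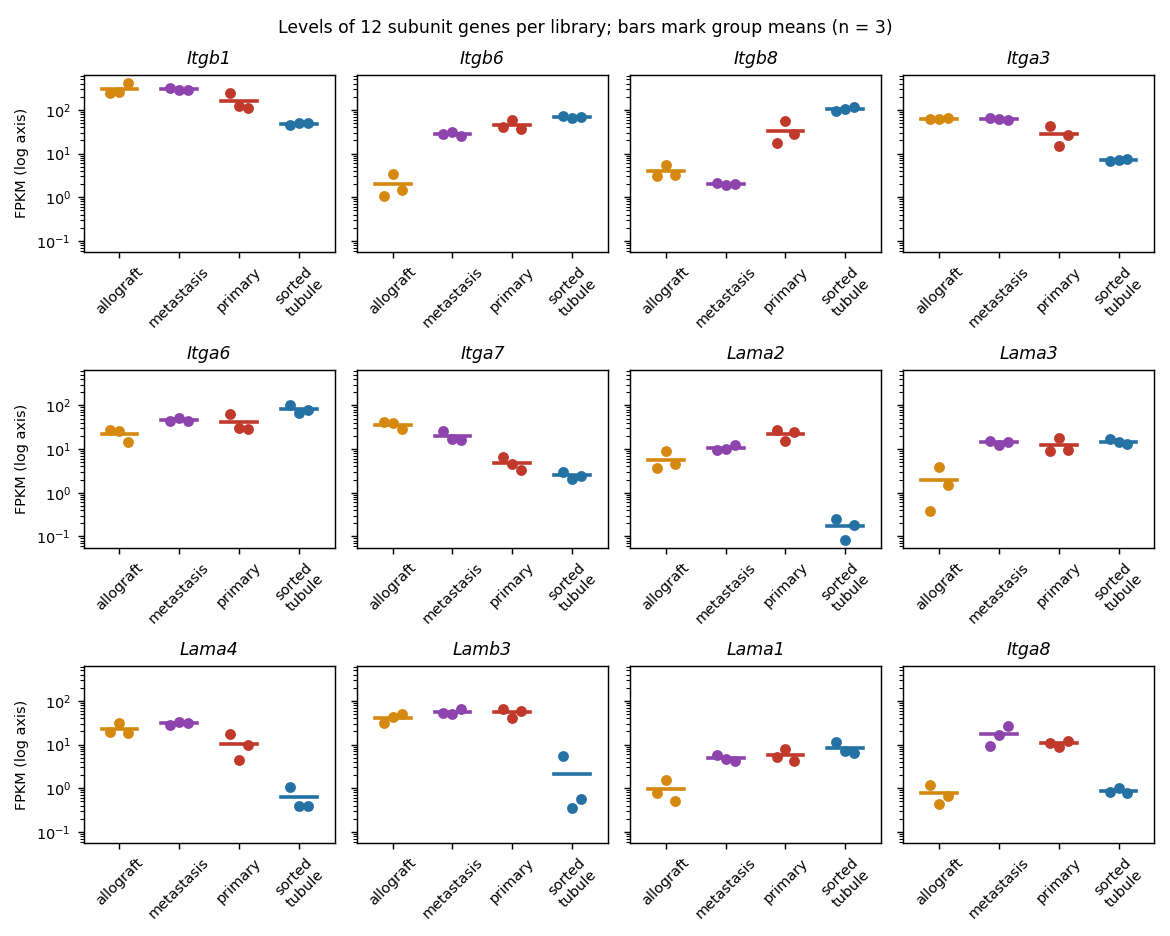
FPKM on a log axis (vertical) of 12 subunit genes in the 3 libraries of each group (dots), with the group mean as a bar, for allografts, metastases, primary tumors and sorted proximal tubule cells. Itgb8 is near 2 FPKM in metastases, while Itgb6, Lama3, Lama1 and Itga8 are lowest or near lowest in allografts.

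Among laminin-binding α chains the RNA of proximal tubule cells was mostly Itga6, which pairs with β1 or β4. Itga6 was still the leading chain in primary tumors. Metastases and allografts were led by Itga3, an epithelial and podocyte laminin receptor. Itga7, the laminin receptor best known from muscle, had a larger share in each kind of tumor than in proximal tubule cells. Itga6 had 26.7, 25.7 and 14.7 FPKM in the allografts, 44.0, 50.2 and 44.3 in the metastases, 63.3, 30.3 and 28.9 in the primary tumors and 102, 67.1 and 80.0 in proximal tubule cells. Every tumor library was below the proximal tubule range, and primary tumor 1 was the nearest to it. It fell by 1.87 ± 0.32 in allografts (adjusted p = 0.00038), 0.81 ± 0.32 in metastases (adjusted p = 0.0401) and 1.08 ± 0.32 in primary tumors (adjusted p = 0.0155). Median-of-ratios scaling gave -2.50, -1.41 and -1.73. As deposited the call in primary tumors was lost without primary tumor 3 (adjusted p = 0.0552) or proximal tubule library 1 (adjusted p = 0.059), and moved to -0.36 (adjusted p = 0.379) without primary tumors 2 and 3 together. The call in metastases was lost without any 1 of the 3 metastases or without proximal tubule library 1 or 3 (highest adjusted p 0.131, without library 1). Allografts were lower than metastases (-1.06 ± 0.32, adjusted p = 0.0345). The difference was no longer called without any 1 metastasis, allograft 3 or proximal tubule library 3 (highest adjusted p 0.109, without metastasis 2).

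Itga3 had 60.5, 61.7 and 66.8 FPKM in the allografts, 65.0, 61.9 and 57.9 in the metastases, 41.7, 15.1 and 26.9 in the primary tumors and 6.73, 7.28 and 7.39 in proximal tubule cells. Allografts and metastases lay in 1 narrow range, all above primary tumors, which were all above proximal tubule cells. Itga3 rose by 2.98 ± 0.28 in allografts (adjusted p = 1.1e-05), 2.94 ± 0.28 in metastases (adjusted p = 1.19e-05) and 1.72 ± 0.28 in primary tumors (adjusted p = 0.000621). Median-of-ratios scaling gave 2.38, 2.39 and 1.12. The call in primary tumors was lost after rescaling to TPM (0.69, adjusted p = 0.12). It was higher in metastases than in primary tumors (1.22 ± 0.28, adjusted p = 0.0129). That call did not hold when these 2 groups were fitted alone (adjusted p = 0.0976) or when primary tumors 2 and 3 were left out (0.55, adjusted p = 0.0637). Against primary tumors the allografts were also higher (1.26 ± 0.28, adjusted p = 0.00516). This call was lost after rescaling to TPM (adjusted p = 0.0657).

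Itga7 was lowest in primary tumors and highest in allografts among the tumors. It had 41.6, 38.6 and 29.2 FPKM in the allografts, 25.3, 17.1 and 16.1 in the metastases, 6.74, 4.47 and 3.33 in the primary tumors and 3.06, 2.05 and 2.46 in proximal tubule cells. The groups did not overlap. Against proximal tubule cells it rose by 3.41 ± 0.25 in allografts (adjusted p = 4.12e-06) and 2.53 ± 0.25 in metastases (adjusted p = 1.68e-05), and its rise in primary tumors (0.70 ± 0.25, adjusted p = 0.0379) was lost under all 4 other scalings and without any of 5 libraries (without primary tumor 1 0.48, adjusted p = 0.126). Under median-of-ratios scaling Itga7 changed by 2.89 in allografts and 2.05 in metastases, and its value in primary tumors was 0.20 (adjusted p = 0.541). It was higher in allografts than in primary tumors (2.71 ± 0.25, adjusted p = 8.07e-05) and in metastases than in primary tumors (1.83 ± 0.25, adjusted p = 0.000807), under all 4 other scalings and without any single library. The difference between allografts and metastases (0.88 ± 0.25, adjusted p = 0.0289) was lost after rescaling to TPM (0.52, adjusted p = 0.281) and without metastasis 2 (adjusted p = 0.104) or metastasis 3 (adjusted p = 0.114), and without allograft 1 (adjusted p = 0.0964) or allograft 2 (adjusted p = 0.072). The smooth muscle markers summed to 311, 65.5 and 83.0 FPKM in primary tumors 1 to 3, so primary tumor 1 lay in the range of allografts and metastases given above. Their part in the Itga7 levels was not tested.

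Of the summed FPKM of these 3 α chains, Itga6 made up 13.3 to 20.7% in allografts, 32.8 to 38.9% in metastases, 48.9 to 60.8% in primary tumors and 87.8 to 91.2% in proximal tubule cells, and no 2 of the groups overlapped (exact two-sided permutation p = 0.1 for each pair, the smallest 3 against 3 allow). Itga3 made up 47.0 to 60.4% in allografts, 47.9 to 48.9% in metastases and 30.3 to 45.5% in primary tumors, against 6.04 to 9.53% in proximal tubule cells. Itga7 made up 26.4 to 32.3% in allografts, 13.2 to 18.8% in metastases and 5.63 to 8.96% in primary tumors, against 2.68 to 2.74% in proximal tubule cells. The β4 chain, which pairs with α6 in hemidesmosomes, was modest: Itgb4 had 5.11, 11.97 and 8.30 FPKM in the allografts, 5.85, 5.94 and 7.31 in the metastases, 10.8, 4.62 and 12.3 in the primary tumors and 1.57, 0.839 and 1.49 in proximal tubule cells. It rose by 1.99 ± 0.35 in allografts (adjusted p = 0.000487), 1.69 ± 0.35 in metastases (adjusted p = 0.00149) and 2.07 ± 0.35 in primary tumors (adjusted p = 0.000791), and at least 1 other scaling ended each call. Median-of-ratios scaling gave 1.56 in allografts, 1.29 in metastases and 1.64 in primary tumors. Of its 3 tested partners on the hemidesmosome list, 2 were called higher in each kind of tumor against proximal tubule cells, where 52.2% of all genes were in allografts, 54.0% in metastases and 48.2% in primary tumors. These were Cd151, a tetraspanin, at 134, 120.5 and 83.4 FPKM in allografts, 139.7, 120.1 and 121 in metastases, 114, 86.9 and 70.1 in primary tumors and 23.1, 23.2 and 29.8 in proximal tubule cells, and Plec, the plectin linker, at 61.6, 76.6 and 61.9 FPKM in allografts, 69.4, 61.8 and 74.8 in metastases, 54.0, 23.5 and 43.5 in primary tumors and 13.7, 12.9 and 13.5 in proximal tubule cells. Dst, dystonin, which ties hemidesmosomes to keratin filaments, had 82.5, 87.8 and 139 FPKM in allografts, 86.3, 71.5 and 67.7 in metastases, 94.7, 182 and 199 in primary tumors and 100.2, 98.7 and 90.1 in proximal tubule cells. It was not called against proximal tubule cells (0.06 ± 0.29 in allografts, -0.36 ± 0.29 in metastases and 0.64 ± 0.29 in primary tumors) as deposited, and with median-of-ratios scaling it was called lower in metastases (-0.96, adjusted p = 0.0111). It was lower in metastases than in primary tumors (-1.004 ± 0.29, adjusted p = 0.0338).

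On the ligand side, the leading laminin α chains differed between groups. Lama3, Lama5 and Lama1 made up nearly all α chain RNA of proximal tubule cells. Lama5 and Lama2 led primary tumors 1 and 3, and Lama5 and Lama3 led primary tumor 2. Lama5 and Lama4 led the metastases and allograft 2, with Lama4 ahead in metastases 2 and 3, and Lama4 led allografts 1 and 3. Lama4, the α chain of vessel and mesenchymal laminins, had 19.5, 32.1 and 18.2 FPKM in the allografts, 28.8, 32.9 and 30.5 in the metastases, 17.4, 4.39 and 9.59 in the primary tumors and 1.09, 0.391 and 0.400 in proximal tubule cells. Every tumor library was above every proximal tubule library, and primary tumor 2 was the lowest of them. It rose by 3.88 ± 0.39 in allografts (adjusted p = 1.59e-05), 4.31 ± 0.39 in metastases (adjusted p = 9.87e-06) and 2.67 ± 0.39 in primary tumors (adjusted p = 0.00035). Median-of-ratios scaling gave 3.53, 3.99 and 2.32. It was higher in metastases than in primary tumors (1.64 ± 0.39, adjusted p = 0.0162). The difference was no longer called without metastasis 2 (adjusted p = 0.0603) or metastasis 3 (adjusted p = 0.0537), when the 2 groups were fitted alone (adjusted p = 0.0819) or when primary tumors 2 and 3 were left out (0.79, adjusted p = 0.293). The 8 endothelial markers summed to 76.7 to 149 FPKM in allografts, 346 to 576 in metastases, 213 to 283 in primary tumors and 50.1 to 73.3 in proximal tubule cells, and the 7 fibroblast markers to 942 to 2372 FPKM in allografts, 427 to 537 in metastases, 159.9 to 936 in primary tumors and 2.62 to 4.93 in proximal tubule cells, none of them at 0 in any group. Among the tumors, allografts had the highest Lama4 shares, the lowest endothelial sums and the highest fibroblast sums, and the part of either cell type in the Lama4 levels was not tested.

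Lama2, the laminin α chain of muscle and mesenchyme, had 3.61, 8.93 and 4.46 FPKM in the allografts, 9.73, 10 and 12.3 in the metastases, 27.3, 15.1 and 24.5 in the primary tumors and 0.255, 0.0844 and 0.1799 in proximal tubule cells. Primary tumors were highest, and proximal tubule libraries lowest. It rose by 2.43 ± 0.29 in allografts (adjusted p = 4.35e-05), 3.31 ± 0.29 in metastases (adjusted p = 8.68e-06) and 4.27 ± 0.29 in primary tumors (adjusted p = 5.83e-06) under all 4 other scalings and without any single library. Median-of-ratios scaling gave 2.21 in allografts, 3.11 in metastases and 4.02 in primary tumors. Between tumors, allografts were lower than primary tumors (-1.85 ± 0.29, adjusted p = 0.000985). The lower level in metastases than in primary tumors (-0.96 ± 0.29, adjusted p = 0.0417) was lost with median-of-ratios scaling (adjusted p = 0.0604) and on leaving out any of 8 of the 12 libraries (highest adjusted p 0.133, without primary tumor 3). Pdgfra, a receptor of fibroblasts on the fibroblast list, had 7.21, 20.3 and 6.54 FPKM in allografts, 22.7, 31.4 and 35.6 in metastases, 36.4, 24.7 and 41.3 in primary tumors and 0.0894, 0.114 and 0.148 in proximal tubule cells. It does not stand for that list, whose sum was highest in allografts (942 to 2372 FPKM, against 159.9 to 936 in primary tumors). Of the 7 genes, 4 were called higher and 1 lower in allografts against primary tumors, beside 20.5% and 21.1% of all genes. The part of fibroblasts in the Lama2 levels was not tested.

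Lama3 and Lama1, the α chains of the sorted cells beside Lama5, were lowest in allografts. Lama3 had 0.390, 3.83 and 1.53 FPKM in the allografts, 15.4, 12.2 and 14.9 in the metastases, 9.21, 18.2 and 9.50 in the primary tumors and 17.1, 14.6 and 12.9 in proximal tubule cells. Metastases, primary tumors and proximal tubule cells overlapped, and all allografts were below them. Lama3 fell by 2.62 ± 0.40 in allografts against proximal tubule cells (adjusted p = 0.000191), by 2.56 ± 0.40 against metastases (adjusted p = 0.00125) and by 2.31 ± 0.40 against primary tumors (adjusted p = 0.00148). In metastases (-0.06 ± 0.40, adjusted p = 0.894) and primary tumors (-0.31 ± 0.40, adjusted p = 0.525) its change against proximal tubule cells was not called as deposited. Median-of-ratios scaling gave -3.16 in allografts, -0.64 in metastases and -0.93 in primary tumors. After rescaling to TPM it was called lower in metastases (-1.06, adjusted p = 0.0261) and in primary tumors (-1.34, adjusted p = 0.012). Lama1 had 0.790, 1.53 and 0.516 FPKM in the allografts, 5.89, 4.67 and 4.29 in the metastases, 5.33, 7.89 and 4.25 in the primary tumors and 11.2, 7.19 and 6.56 in proximal tubule cells. It fell by 2.26 ± 0.27 in allografts against proximal tubule cells (adjusted p = 4.18e-05), by 1.64 ± 0.27 against metastases (adjusted p = 0.00179) and by 1.81 ± 0.27 against primary tumors (adjusted p = 0.000752). Its changes in metastases (-0.62 ± 0.27, adjusted p = 0.0613) and primary tumors (-0.45 ± 0.27, adjusted p = 0.18) were not called as deposited, and both were called lower with median-of-ratios scaling (-1.16 in metastases and -1.04 in primary tumors, beside -2.77 in allografts).

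Lama5, the α chain of most adult epithelial basement membranes, had 10.1, 32.6 and 8.48 FPKM in the allografts, 39.3, 29.8 and 28.5 in the metastases, 34.1, 18.4 and 28.4 in the primary tumors and 13.6, 11.3 and 11.9 in proximal tubule cells. Allograft 2 was with the metastases, while allografts 1 and 3 were below all proximal tubule libraries. It was called higher in metastases (1.32 ± 0.41, adjusted p = 0.0154). That call was lost under all 4 other scalings (with median-of-ratios scaling 0.75, adjusted p = 0.146) and without metastasis 1 (adjusted p = 0.055). Lama5 was not called in allografts (0.20 ± 0.41, adjusted p = 0.679) or primary tumors (1.04 ± 0.41, adjusted p = 0.0565). Its share of α chain RNA was 25.5 to 41.3% in allografts, 31.4 to 39.6% in metastases, 28.7 to 37.3% in primary tumors and 31.4 to 37.3% in proximal tubule cells, overlapping throughout. Lama4 made up 40.6 to 56.7% in allografts, 29.1 to 36.7% in metastases, 6.86 to 18.6% in primary tumors and 1.17 to 2.51% in proximal tubule cells, with no overlap between groups. Lama3 made up 1.13 to 4.84% in allografts, 13.7 to 16.5% in metastases and 9.88 to 28.5% in primary tumors, against 39.6 to 43.5% in proximal tubule cells.

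Lamb3, a β chain of epithelial laminins that joins α3, had 30.6, 43.8 and 49.3 FPKM in the allografts, 53.9, 51.5 and 65.9 in the metastases, 66.7, 40.6 and 58.8 in the primary tumors and 5.44, 0.356 and 0.576 in proximal tubule cells. All tumor libraries were between 30 and 70 FPKM, and proximal tubule library 1 was well above the other two. Lamb3 rose by 4.11 ± 0.49 in allografts (adjusted p = 4.3e-05), 4.59 ± 0.49 in metastases (adjusted p = 2.67e-05) and 4.53 ± 0.49 in primary tumors (adjusted p = 7.3e-05). Median-of-ratios scaling gave 3.70, 4.22 and 4.10. The tumor groups were not told apart by the test. Without proximal tubule library 1 the rises were 4.83, 5.31 and 5.24.

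In allografts, then, Lamb3 was at 41.2 ± 9.58 FPKM beside Lama3 at 1.92 ± 1.75 FPKM (SD, n = 3). In metastases Lamb3 stood at 57.1 ± 7.70 FPKM and Lama3 at 14.2 ± 1.70, in primary tumors Lamb3 at 55.3 ± 13.4 and Lama3 at 12.3 ± 5.12, and in proximal tubule cells Lamb3 at 2.12 ± 2.88 and Lama3 at 14.9 ± 2.12 FPKM.

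The general chains were abundant everywhere. Lamb1, the β chain of most laminins outside the glomerulus, had 58.8, 102 and 91.0 FPKM in the allografts, 118, 74.9 and 72.7 in the metastases, 123, 59.7 and 81.4 in the primary tumors and 33.9, 37.6 and 49.0 in proximal tubule cells. It was called higher in allografts (1.03 ± 0.31, adjusted p = 0.0125), metastases (1.10 ± 0.31, adjusted p = 0.0089) and primary tumors (1.07 ± 0.31, adjusted p = 0.0149) as deposited and under none of the 4 other scalings. Median-of-ratios scaling gave 0.39, 0.50 and 0.42. In primary tumors the call was also lost without primary tumor 1 (adjusted p = 0.0504) or proximal tubule library 1 (adjusted p = 0.0536). Its share of β chain RNA was 54.7 to 57.5% in allografts, 44.0 to 59.4% in metastases and 47.8 to 57.0% in primary tumors, against 74.4 to 88.4% in proximal tubule cells. Lamb3 made up 24.6 to 31.1% in allografts, 27.2 to 39.9% in metastases and 31.0 to 34.5% in primary tumors, against 0.835 to 11.9% in proximal tubule cells.

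Lamc1, the γ chain of most laminins, had 24.9, 38.7 and 33.5 FPKM in the allografts, 53.2, 46.5 and 44.5 in the metastases, 39.4, 11.7 and 18.8 in the primary tumors and 11.5, 10.5 and 9.73 in proximal tubule cells. It rose by 1.51 ± 0.34 in allografts (adjusted p = 0.00261) and 2.08 ± 0.34 in metastases (adjusted p = 0.000373), or 0.90 and 1.51 with median-of-ratios scaling, and both calls were lost after rescaling to TPM (adjusted p = 0.761 and 0.051). The one in allografts held under median-of-ratios scaling alone. Its call in primary tumors (0.90 ± 0.34, adjusted p = 0.0468) was lost under all 4 other scalings and on leaving out any of 10 of the 12 libraries (without primary tumor 1 0.45, adjusted p = 0.129). Lamb2, the β chain of the glomerular basement membrane, had 18.0, 32.0 and 18.2 FPKM in the allografts, 26.7, 21.1 and 26.6 in the metastases, 25.9, 20.7 and 30.1 in the primary tumors and 6.23, 4.61 and 5.83 in proximal tubule cells. It rose by 1.81 ± 0.24 in allografts (adjusted p = 6.94e-05), 1.98 ± 0.24 in metastases (adjusted p = 4.85e-05) and 2.01 ± 0.24 in primary tumors (adjusted p = 0.000103). Median-of-ratios scaling gave 1.24, 1.44 and 1.43. The call in allografts was lost after rescaling to TPM (0.52, adjusted p = 0.241). Lamc3 was low but for 2 libraries: it had 0.364, 1.12 and 0.244 FPKM in the allografts, 0.504, 0.718 and 0.912 in the metastases, 1.95, 5.04 and 12.3 in the primary tumors and 0.782, 0.613 and 0.407 in proximal tubule cells. Primary tumors 2 and 3, which had the highest sums of tubule markers among tumors, were the highest. The 8 markers of other nephron segments summed to 1.30 to 7.05 FPKM in allografts, 14.5 to 19.6 in metastases, 317 to 4396 in primary tumors and 307 to 535 in proximal tubule cells, and their part was not tested. Lamc3 was lower in allografts (-2.01 ± 0.44, adjusted p = 0.00486) and metastases (-1.86 ± 0.44, adjusted p = 0.0156) than in primary tumors, and neither call held without primary tumors 2 and 3 (-0.95 and -0.79, adjusted p = 0.0602 and 0.218). The call against metastases was also lost without metastasis 1 (adjusted p = 0.0538) or 2 (adjusted p = 0.0522).

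**Figure D4:**
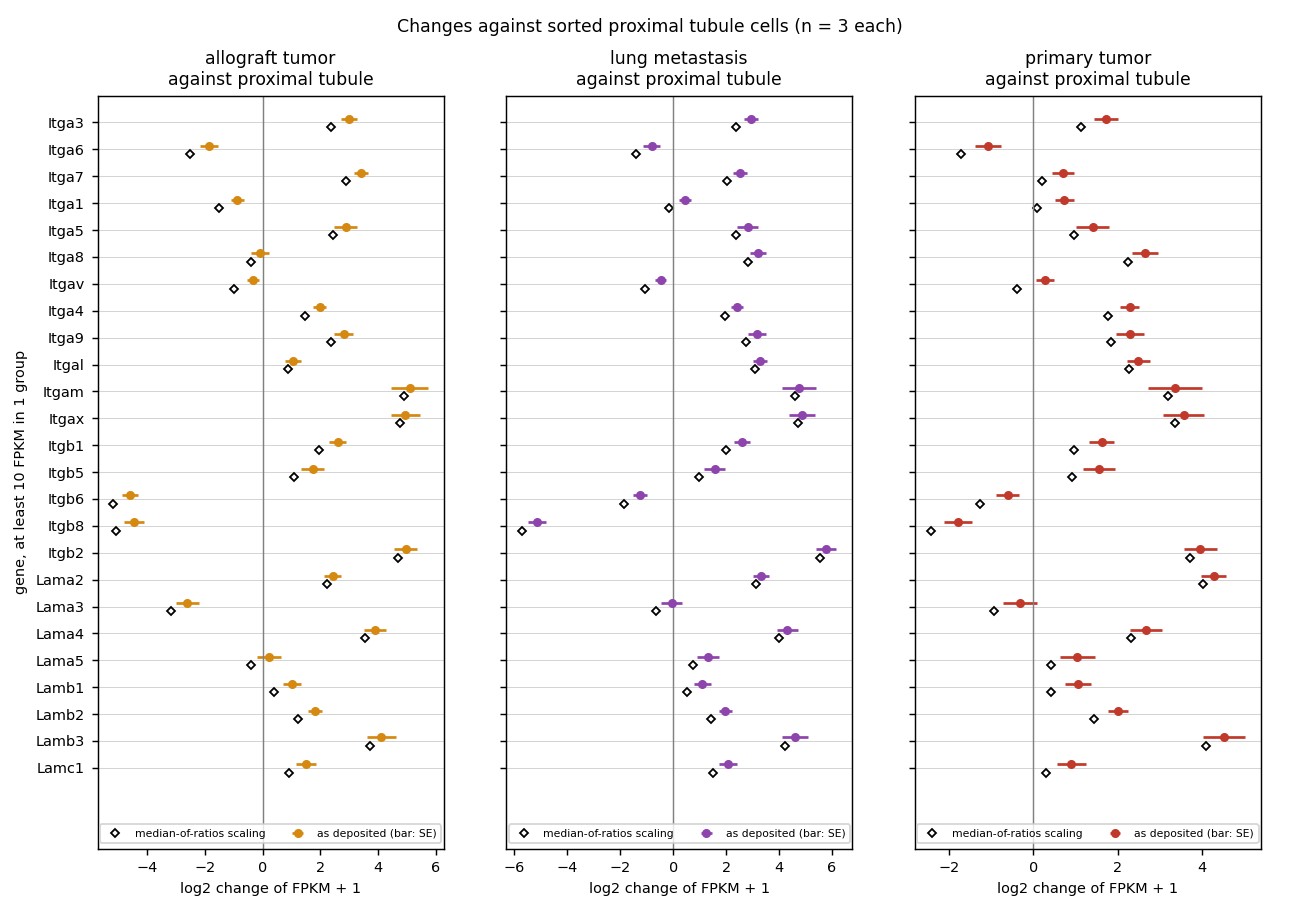
Log2 change of FPKM + 1 (horizontal axis) of 25 subunit genes averaging 10 FPKM or more in 1 group, in allografts, metastases and primary tumors against proximal tubule cells, as deposited (filled, with SE) and with median-of-ratios scaling (open). Scaling moves the genes to the left. Itgb8 and Itga6 lie left of 0 and Lamb3, Lama4 and Lama2 right of 0 in all 3 panels.

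Collagen receptors were led by Itga1, the collagen IV receptor chain, in all groups, least so in allografts. Itga1 had 15.5, 22.5 and 15.4 FPKM in the allografts, 46.5, 42.3 and 46.7 in the metastases, 80.6, 47.6 and 45.9 in the primary tumors and 31.8, 37.2 and 31.0 in proximal tubule cells. Allografts did not overlap any other group. Itga1 fell by 0.89 ± 0.23 in allografts against proximal tubule cells (adjusted p = 0.00496), by 1.32 ± 0.23 against metastases (adjusted p = 0.00221) and by 1.62 ± 0.23 against primary tumors (adjusted p = 0.000527), under all 4 other scalings and without any single library. The call of a rise in primary tumors (0.74 ± 0.23, adjusted p = 0.0191) was lost under all 4 other scalings (with median-of-ratios scaling 0.09, adjusted p = 0.768) and without primary tumor 1, proximal tubule library 1 or proximal tubule library 3 (adjusted p = 0.0525, 0.0551 and 0.0611), and metastases were not called (0.43 ± 0.23, adjusted p = 0.112).

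Itga2, a collagen receptor chain of epithelia and platelets, had 2.23, 6.02 and 11.2 FPKM in the allografts, 3.59, 5.27 and 5.39 in the metastases, 4.43, 0.841 and 1.05 in the primary tumors and 0.0487, 0.0372 and 0.0403 in proximal tubule cells. The proximal tubule values are close to what 1 fragment on a 5 kb transcript is worth there. It rose by 2.65 ± 0.49 in allografts (adjusted p = 0.000662) and 2.45 ± 0.49 in metastases (adjusted p = 0.00118), and its call in primary tumors (1.39 ± 0.49, adjusted p = 0.0333) was lost under all 4 other scalings (with median-of-ratios scaling adjusted p = 0.0546), without any 1 proximal tubule library and without primary tumor 1 (0.90, adjusted p = 0.112). Itga11, the fibrillar collagen receptor chain of fibroblasts, had 2.74, 4.91 and 2.02 FPKM in allografts, 0.326, 0.404 and 0.338 in metastases and 0.759, 0.0821 and 0.231 in primary tumors, and the 3 proximal tubule libraries list it at 0. It was higher in allografts than in metastases (1.58 ± 0.24, adjusted p = 0.00117) and than in primary tumors (1.61 ± 0.24, adjusted p = 0.000786), under all 4 other scalings. Of the fibroblast list, 4 of 7 genes were called higher and 1 lower in allografts against primary tumors, beside 20.5% and 21.1% of all genes, and 3 higher and 1 lower against metastases, beside 10.4% and 13.3%, and their part in the Itga11 levels was not tested. Itga10 had 0.973, 1.42 and 0.740 FPKM in allografts, 0.578, 0.527 and 0.471 in metastases, 0.832, 0.294 and 0.523 in primary tumors and 0.150, 0.145 and 0.189 in proximal tubule cells. Itga1 made up 52.4 to 72.3% of the RNA of these 4 chains in allografts, 87.2 to 91.2% in metastases, 93.0 to 97.5% in primary tumors and 99.3 to 99.5% in proximal tubule cells.

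The leukocyte integrins were high in tumors and near 0 in sorted cells, as were general leukocyte markers. Itgb2, the β chain shared by the leukocyte α chains, had 44.6, 48.0 and 21.9 FPKM in the allografts, 56.5, 73.0 and 65.7 in the metastases, 35.1, 12.3 and 12.7 in the primary tumors and 0.0708, 0.373 and 0.178 in proximal tubule cells. Metastases were highest, and primary tumors 2 and 3 the lowest of the tumors. Itgb2 rose by 4.95 ± 0.39 in allografts (adjusted p = 5.44e-06), 5.77 ± 0.39 in metastases (adjusted p = 1.89e-06) and 3.96 ± 0.39 in primary tumors (adjusted p = 4.32e-05). Median-of-ratios scaling gave 4.70 in allografts, 5.56 in metastases and 3.70 in primary tumors. All 6 pan-leukocyte markers were called higher in each kind of tumor against proximal tubule cells. Of all genes 52.2% were in allografts, 54.0% in metastases and 48.2% in primary tumors. These 6 markers summed to 999.8, 503 and 253 FPKM in the allografts, 770.0, 843 and 792 in the metastases, 762, 238 and 261 in primary tumors 1 to 3 and 3.01, 4.23 and 6.17 in the proximal tubule libraries. As a percentage of that sum Itgb2 stood at 4.46, 9.53 and 8.63 in the allografts, 7.34, 8.66 and 8.30 in the metastases, 4.61, 5.17 and 4.84 in primary tumors 1 to 3 and 2.36, 8.82 and 2.89 in the proximal tubule libraries. Itgb2 was higher in metastases than in primary tumors (1.81 ± 0.39, adjusted p = 0.0103). The difference was no longer called when the 2 groups were fitted alone (adjusted p = 0.0596) or when primary tumors 2 and 3 were left out (0.87, adjusted p = 0.33). The part of leukocyte content in these differences was not tested.

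Among the α partners of β2, Itgam, the chain of macrophages and neutrophils, had 64.0, 32.3 and 18.6 FPKM in allografts, 31.2, 26.8 and 22.3 in metastases and 33.9, 4.67 and 4.91 in primary tumors, against 0, 0 and 0.0875 in proximal tubule cells. Itgax, a chain of dendritic cells and macrophages, had 59.3, 23.7 and 23.6 FPKM in allografts, 35.0, 28.7 and 29.0 in metastases, 29.6, 6.96 and 7.53 in primary tumors and 0.0961, 0.151 and 0 in proximal tubule cells. Both were called higher in each kind of tumor against proximal tubule cells, by 5.08 ± 0.63 and 4.94 ± 0.49 in allografts (adjusted p = 5.37e-05 and 1.51e-05), 4.74 ± 0.63 and 4.88 ± 0.49 in metastases (adjusted p = 9.75e-05 and 1.75e-05) and 3.36 ± 0.63 and 3.56 ± 0.49 in primary tumors (adjusted p = 0.00155 and 0.000252). With median-of-ratios scaling Itgam changed by 4.90 in allografts, 4.60 in metastases and 3.19 in primary tumors, and Itgax by 4.74, 4.71 and 3.36 in the same groups. Both were also called higher in allografts than in primary tumors (1.73 ± 0.63 for Itgam and 1.38 ± 0.49 for Itgax, adjusted p = 0.0499 and 0.0439). These calls were lost on leaving out any of 10 libraries for Itgam and any of 9 for Itgax (without primary tumor 3, adjusted p = 0.174 and 0.152). Itgal, the α chain of lymphocytes and other leukocytes, had a different order, with 2.57, 1.38 and 0.558 FPKM in allografts, 8.79, 9.88 and 12.2 in metastases, 5.84, 4.15 and 6.70 in primary tumors and 0.144, 0.223 and 0.0906 in proximal tubule cells. Against proximal tubule cells Itgal rose by 1.04 ± 0.28 in allografts (adjusted p = 0.00659), 3.28 ± 0.28 in metastases (adjusted p = 6.62e-06) and 2.49 ± 0.28 in primary tumors (adjusted p = 8.03e-05). Median-of-ratios scaling gave 0.87 in allografts, 3.09 in metastases and 2.27 in primary tumors. The call in allografts was lost after rescaling to TPM (adjusted p = 0.0938) and quantile normalization (adjusted p = 0.632). Itgal was lower in allografts than in metastases (-2.24 ± 0.28, adjusted p = 0.0003) and than in primary tumors (-1.45 ± 0.28, adjusted p = 0.00254), under all 4 other scalings and without any single library. The 6 T and NK cell markers summed to 5.10 to 13.6 FPKM in allografts, 20.2 to 30.4 in metastases, 20.6 to 25.5 in primary tumors and 0.330 to 1.11 in proximal tubule cells, and the 6 B cell markers to 14.9 to 62.5 FPKM in allografts, 116 to 218 in metastases, 81.9 to 327 in primary tumors and 0.122 to 0.816 in proximal tubule cells. The 6 neutrophil markers summed to 5.65 to 23.8 FPKM in allografts, 186 to 381 in metastases, 2.505 to 48.4 in primary tumors and 0 to 1.89 in proximal tubule cells. The 6 macrophage markers summed to 859 to 3054 FPKM in allografts, 745 to 1049 in metastases, 163 to 1217 in primary tumors and 5.17 to 6.73 in proximal tubule cells.

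**Figure D5:**
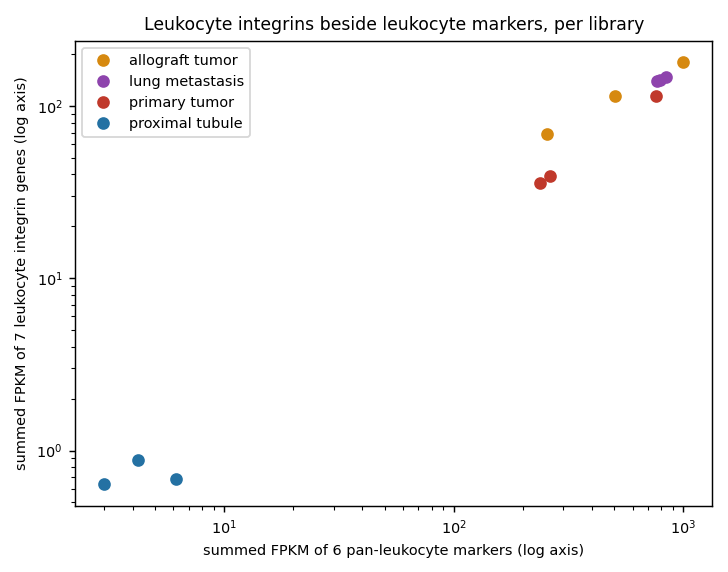
Summed FPKM of the 7 leukocyte integrin genes (vertical, log axis) against the summed FPKM of 6 pan-leukocyte markers (horizontal, log axis), 1 dot per library, by group. The 3 proximal tubule libraries lie below 1 FPKM of leukocyte integrins, and the 9 tumor libraries lie between 35.8 and 180.1 FPKM, with primary tumors 2 and 3 lowest.

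Itgb7, which pairs with α4 and αE on lymphocytes, had 3.59, 4.25 and 1.59 FPKM in allografts, 5.24, 6.56 and 9.40 in metastases, 5.94, 6.03 and 5.18 in primary tumors and 0.0704, 0.0552 and 0.119 in proximal tubule cells. It was lower in allografts than in metastases (-0.99 ± 0.26, adjusted p = 0.0214). That call did not hold without metastasis 2 (adjusted p = 0.0584) or 3 (adjusted p = 0.0926). Itga4, which binds VCAM-1 and fibronectin on leukocytes and other cells, had 15.1, 10.2 and 9.55 FPKM in the allografts, 12.5, 15.6 and 20.3 in the metastases, 15.4, 11.4 and 16.8 in the primary tumors and 2.46, 2.09 and 1.92 in proximal tubule cells, and rose in allografts (1.98 ± 0.23, adjusted p = 3.25e-05), metastases (2.42 ± 0.23, adjusted p = 1.19e-05) and primary tumors (2.29 ± 0.23, adjusted p = 4.39e-05) under all 4 other scalings. Median-of-ratios scaling gave 1.48 in allografts, 1.95 in metastases and 1.78 in primary tumors. Itga9, its relative that binds tenascin C and osteopontin, had 20.2, 14.6 and 10.03 FPKM in the allografts, 18.0, 19.1 and 18.9 in the metastases, 17.7, 6.10 and 8.37 in the primary tumors and 1.11, 1.49 and 1.02 in proximal tubule cells, and likewise rose in allografts (2.81 ± 0.33, adjusted p = 3.91e-05), metastases (3.16 ± 0.33, adjusted p = 2.31e-05) and primary tumors (2.29 ± 0.33, adjusted p = 0.000345). Median-of-ratios scaling gave 2.37 in allografts, 2.76 in metastases and 1.85 in primary tumors. No difference between kinds of tumor was called for Itga4 or Itga9.

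The remaining subunits were low. Itgae, whose protein binds E-cadherin, stayed under 3 FPKM in every library, Itga2b, the platelet chain αIIb, under 5 FPKM, and Itgad under 5 FPKM. The 7 platelet and megakaryocyte markers summed to 25.4 to 88.4 FPKM in allografts, 74.8 to 107 in metastases, 7.42 to 102 in primary tumors and 0 to 1.20 in proximal tubule cells. Itgad, a β2 partner of macrophages, was listed at 0 in the 3 proximal tubule libraries and had 4.20, 1.93 and 0.960 FPKM in allografts. Itgb2l, a gene close to Itgb2 in sequence whose reads the counting may have shared with it, had 0.761, 0.787 and 0.651 FPKM in the allografts, 2.54, 1.19 and 1.39 in the metastases, 4.71, 6.58 and 6.88 in the primary tumors and 0, 0 and 0.127 in proximal tubule cells. It was highest in primary tumors, and lower in allografts (-2.01 ± 0.20, adjusted p = 0.000115) and in metastases (-1.40 ± 0.20, adjusted p = 0.000941) than there, while Itgb2 was not called lower in either. Of the genes matched by name alone, Itgb1bp1, which binds the tail of β1, had 32.9, 31.7 and 14.5 FPKM in the allografts, 18.1, 23.8 and 22.6 in the metastases, 16.0, 20.4 and 18.0 in the primary tumors and 15.6, 19.2 and 19.4 in proximal tubule cells. As deposited it was not called in any comparison, with changes against proximal tubule cells of 0.44 ± 0.27 in allografts (adjusted p = 0.176), 0.23 ± 0.27 in metastases (adjusted p = 0.464) and 0.00 ± 0.27 in primary tumors (adjusted p = 0.997), and after rescaling to TPM it was called lower in allografts (-0.91) and primary tumors (-1.05). Itgb3bp stayed between 1.65 and 3.56 FPKM and was likewise not called in any comparison as deposited. It was called lower in metastases with median-of-ratios scaling (-0.40, adjusted p = 0.0386). Itgb1bp2 stayed under 5 FPKM. Itgbl1 had 2.89, 7.84 and 2.08 FPKM in allografts, 0.657, 0.736 and 1.91 in metastases and 4.25, 1.40 and 1.89 in primary tumors, and was at 0 in each proximal tubule library.

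Of 25 integrin adaptors, 13 were called higher and 7 lower in allografts against proximal tubule cells, 15 and 7 in metastases, and 13 and 3 in primary tumors, with median log2 changes of 0.53, 0.91 and 0.46 beside 0.66, 0.68 and 0.59 over all genes. Of all genes 52.2% were called higher and 16.9% lower in allografts, 54.0% and 14.4% in metastases, and 48.2% and 4.90% in primary tumors. With median-of-ratios scaling the counts were 8 and 10, 12 and 9, and 6 and 8, beside 37.4% and 28.1% of all genes in allografts, 37.4% and 26.8% in metastases, and 25.5% and 18.0% in primary tumors. Flna, an actin crosslinker and the most abundant of these adaptors by its tumor level, had 614, 372 and 422 FPKM in allografts, 274, 252 and 254 in metastases, 257, 54.5 and 80.6 in primary tumors and 14.3, 10.5 and 11.3 in proximal tubule cells (5.15 ± 0.46, 4.33 ± 0.46 and 3.02 ± 0.46, adjusted p = 8.75e-06, 2.31e-05 and 0.000427). Actn1, an actinin that links integrins to actin, had 83.2, 125 and 117 FPKM in allografts, 77.7, 72.3 and 67.1 in metastases, 56.3, 12.5 and 23.7 in primary tumors and 7.69, 5.59 and 6.17 in proximal tubule cells. Fermt3, the kindlin of blood cells, had 56.5, 36.6 and 13.1 FPKM in allografts, 23.3, 22.4 and 20.2 in metastases, 22.0, 6.17 and 7.19 in primary tumors and 0.0740, 0.289 and 0.0625 in proximal tubule cells. Fermt1, the kindlin of epithelia, was lower in some tumors: it had 0.127, 3.79 and 1.46 FPKM in allografts and 0.372, 0.861 and 0.896 in metastases, against 13.7, 11.2 and 16.9 in primary tumors (-2.64 ± 0.41 and -3.12 ± 0.41, adjusted p = 0.00095 and 0.000614), while proximal tubule cells had 11.6, 11.3 and 11.8 FPKM.

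Of 18 other basement membrane genes, 5 were called higher and 7 lower in allografts against proximal tubule cells (52.2% and 16.9% of all genes), and 10 and 3 in metastases (54.0% and 14.4%). In primary tumors 7 were called, each of them higher (48.2% of all genes were). With median-of-ratios scaling the counts were 3 and 8 (37.4% and 28.1% of all genes), 7 and 4 (37.4% and 26.8%), and 4 and 1 (25.5% and 18.0%). Of the 18, 9 were called in allografts against primary tumors and 9 against metastases, each of them lower, with median log2 changes of -1.04 and -1.24 beside -0.02 and 0.03 over all genes. Of all genes 21.1% were called lower in allografts against primary tumors and 13.3% against metastases. Col4a1, a chain of the collagen IV of all basement membranes and the most abundant of these genes over the 12 libraries, had 60.8, 132 and 77.1 FPKM in allografts, 282, 274 and 265 in metastases, 217, 52.0 and 54.6 in primary tumors and 50.02, 35.4 and 34.1 in proximal tubule cells. It was higher in metastases than in proximal tubule cells (2.77 ± 0.49, adjusted p = 0.000556), and lower in allografts than in metastases (-1.67 ± 0.49, adjusted p = 0.0312). Nid1, which links laminin to collagen IV, had 15.3, 41.3 and 25.2 FPKM in allografts, 64.3, 60.6 and 55.6 in metastases, 72.5, 16.9 and 22.0 in primary tumors and 2.33, 1.80 and 1.499 in proximal tubule cells. Col4a3, a collagen IV chain of the glomerular and distal tubular basement membrane, had 0.254, 4.13 and 1.41 FPKM in allografts, against 36.6, 20.4 and 23.9 in metastases, 20.8, 53.6 and 44.8 in primary tumors and 80.7, 52.5 and 37.7 in proximal tubule cells (-3.44 ± 0.52, -3.93 ± 0.52 and -4.47 ± 0.52 for allografts against these 3 groups, adjusted p = 0.001, 0.000423 and 3.36e-05). Bcam, a receptor for laminin α5, had 10.2, 17.5 and 9.13 FPKM in allografts, 119.8, 108 and 113 in metastases, 80.4, 62.5 and 138 in primary tumors and 16.2, 15.9 and 16.9 in proximal tubule cells, and allografts were lower than metastases (-3.16 ± 0.29, adjusted p = 4.14e-05).

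Of 22 other integrin ligands, 20 passed the filter, and 15 were called higher and 3 lower in allografts against proximal tubule cells, 16 and 2 in metastases, and 15 and 2 in primary tumors, with median log2 changes of 2.47, 2.99 and 1.97. All genes had medians of 0.66, 0.68 and 0.59, with 52.2% called higher and 16.9% lower in allografts, 54.0% and 14.4% in metastases, and 48.2% and 4.90% in primary tumors. With median-of-ratios scaling the counts were 13 and 4 (37.4% and 28.1% of all genes), 15 and 2 (37.4% and 26.8%), and 14 and 3 (25.5% and 18.0%). Postn, periostin, a matrix protein of fibroblasts, had 1022, 407 and 739.8 FPKM in allografts, 310.3, 149.9 and 183 in metastases, 193, 1.94 and 6.37 in primary tumors and 0.0683, 0 and 0 in proximal tubule cells, and primary tumors spanned a wide range. Tnc, tenascin C and a ligand of α9, had 58.7, 76.7 and 52.5 FPKM in allografts, 36.5, 34.8 and 31.1 in metastases, 65.4, 5.82 and 14.0 in primary tumors and 1.04, 0.528 and 0.263 in proximal tubule cells. Fbn1, fibrillin 1, had 67.5, 123 and 49.98 FPKM in allografts, 91.1, 69.9 and 74.5 in metastases, 91.9, 8.52 and 13.1 in primary tumors and 0.751, 0.654 and 0.452 in proximal tubule cells. Spp1, osteopontin, the most abundant of these ligands over the 12 libraries though below Postn in allografts 1 and 3, had 469, 825 and 217 FPKM in allografts, 741, 768 and 502 in metastases, 4779, 715 and 974 in primary tumors and 1170.0, 917 and 1051 in proximal tubule cells. Cdh1, E-cadherin, the ligand of αE, had 0.938, 7.87 and 2.01 FPKM in allografts, 49.4, 51.4 and 49.95 in metastases, 38.6, 44.2 and 71.0 in primary tumors and 13.4, 16.1 and 16.9 in proximal tubule cells, and was lower in allografts than in metastases (-3.78 ± 0.45, adjusted p = 0.000239) and than in primary tumors (-3.76 ± 0.45, adjusted p = 0.000276). Icam1, a ligand of β2 integrins, had 22.6, 25.5 and 12.9 FPKM in allografts, 130.5, 148 and 159 in metastases, 44.0, 21.8 and 22.0 in primary tumors and 9.22, 5.63 and 6.51 in proximal tubule cells.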

How the data were processed

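Bulk RNA from 12 mouse libraries (4 groups of 3) was available as 1 table of FPKM values that the authors deposited. The submitters' processing notes name Salmon, bcl2fastq 2.17.1.14 and the genome builds mm10 and GRCm38. They leave out the annotation, the gene lengths and the Salmon version. Because the values are not counts, no count model was used. Depth was estimated from the commonest value that 1 fragment gives on genes with a single transcript of at least 1500 bases. The proximal tubule columns showed no exact steps, and no source says whether the same gene lengths were used for them.

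Changes were computed with limma 3.58.1 (R 4.3.3, trend) on log2(FPKM + 1) in 1 fit of all 12 libraries, for 16313 genes with at least 1 FPKM in at least 3 libraries. Benjamini-Hochberg adjustment ran over all of them, and calls were made at an adjusted p under 0.05. Chain shares were compared with exact two-sided permutation tests. Python 3.11.15, pandas 2.3.3, scipy 1.17.1 and matplotlib 3.10.9 were used for the rest. The limma step was tested on simulated data with known changes. Members and gene lists were chosen with earlier results of these data known. Members that averaged 10 FPKM or more in 1 group are given with full statistics, but for 1 that enters the counts and is not reported here by itself. Of each pathway list the most abundant gene and the 3 called genes with the largest changes were named. Fermt1, Bcam, Cdh1, Icam1 and Fn1, and the markers Pdgfra and Myh11, were chosen after their values were seen. Alternatives were pseudocounts of 0.1 and 5, no filter and a filter at 5 FPKM, TPM rescaling, median-of-ratios scaling, quantile normalization, scaling without the 50 most abundant genes, fits of only the 2 groups compared, a replicate block, and leaving out each library or primary tumors 2 and 3.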

Additional observations from a re-analysis of the deposited data

How the results depend on the processing

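Of the alternative values of single genes, 5006 stayed on their side of the threshold, 341 lost a call, 104 gained one, and 21, each against proximal tubule cells, changed sign with a call under 1 of the 2 settings. Among the 5006, 151 changed sign without a call under either setting (47 against proximal tubule cells and 104 between tumors). The causes were not tested. In primary tumors the log2 changes of the 21 were, after rescaling to TPM, -0.026 for Lamb1, -0.15 for Itga7, -0.13 for Lamc1, -0.82 for Itgav, -0.35 for Itga1 and -1.05 for Itgb1bp1, and, after quantile normalization, -0.16 for Itgb3, -0.37 for Itga7, -0.78 for Itgb3bp and -0.30 for Itga2b. In metastases they were -0.68 (TPM), -0.40 (median-of-ratios) and -1.18 (quantile) for Itgb3bp, and -0.39 for Itgb1bp2 and -0.37 for Itga2b (quantile). In allografts they were -0.37 for Lamb1, -0.63 for Itgb3bp, -0.047 for Itga2b and -0.91 for Itgb1bp1 (TPM), and -0.57 for Itgb3bp and -0.079 for Itga2b (quantile).

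Counts of called genes moved by over 1.5 times as follows. After rescaling to TPM, 18 were higher and 7 lower in primary tumors and 7 lower in metastases against proximal tubule cells (18.6% of all genes higher and 33.1% lower, and 35.7% lower). The same rescaling gave 5 higher and 3 lower in metastases against primary tumors (8.42% and 6.54% of all genes). It gave 2 and 1 higher in allografts against primary tumors and metastases (10.6% and 2.84% of all genes). Quantile normalization gave 17 higher and 5 lower in primary tumors (13.9% and 21.3% of all genes) and 6 lower in metastases (32.3%). It also gave 4 higher in allografts against metastases (13.8%). Median-of-ratios scaling gave 4 lower in primary tumors (18.0% of all genes) and 6 lower in metastases (26.8%). Without the 50 most abundant genes, 4 were lower in primary tumors (10.1% of all genes) and 5 lower in metastases (22.6%). Metastases against primary tumors then had 5 higher (8.07%), and allografts against primary tumors and metastases had 2 and 1 higher (12.1% and 4.92%). With only the 2 groups compared, 1 was lower in primary tumors, 5 lower in metastases, 2 higher and 2 lower in metastases against primary tumors, and 2 higher in allografts against primary tumors. Without primary tumors 2 and 3, where the 1 primary library left is assumed to vary like the others, 1 was lower in primary tumors, 5 lower in metastases, 1 higher and 3 lower in metastases against primary tumors, and 3 and 4 higher in allografts against primary tumors and metastases. The filter at 5 FPKM, which tests fewer genes, gave 3 lower in metastases against primary tumors and 1 higher in allografts against metastases. Shares of all genes were computed for the scalings alone. Counts under the other settings, here and below, therefore do not tell a change in these genes from a change in all genes.

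Leaving out each library in turn gave 27 to 28 higher and 6 to 6 lower in allografts, 27 to 30 and 2 to 4 in metastases, and 24 to 31 and 1 to 3 in primary tumors against proximal tubule cells. It gave 1 to 5 higher and 7 to 12 lower in allografts against metastases, 5 to 13 and 11 to 13 in allografts against primary tumors, and 4 to 13 and 2 to 6 in metastases against primary tumors. The 54 alternative values of the chain shares, each without 1 library, moved by less than the spread (SD) between libraries. Leaving out 1 of 3 values always moves their mean by less than their SD. These values are therefore no test of how stable the shares are.

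Whether libraries with the same replicate number came from the same animal is not stated. The correlations of their deviations ran from -0.043 to 0.098, and do not decide it. With the replicate number as a block, 27 genes were higher and 6 lower in allografts, 28 and 4 in metastases and 28 and 2 in primary tumors against proximal tubule cells, 2 and 9 in allografts against metastases, 9 and 13 in allografts against primary tumors, and 8 and 4 in metastases against primary tumors. The lower depth of the proximal tubule libraries limits what can be said of genes near 0 there.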
